A study of Homo sapiens with 12 samples.

Results

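The comparison described here is that of HCT116 cells given TGF-β for 1 h with untreated cells, measured by RNA sequencing. Its members are the 3 libraries labelled TGF-β and the 3 labelled as untreated, paired by replicate number, which makes 6 of the 12 libraries of the series. Genes were kept if their mean FPKM (fragments per kilobase of exon, scaled to library size) over the 12 libraries was at least 1, which left 12341 of 25733 genes.

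HCT116 is a human colon cancer cell line, and the study asked how ammonia, given as NH4Cl, alters TGF-β signaling in such cells. The TGF-β group received 200 pM TGF-β for 1 h after a longer time with vehicle, and the control group is untreated. The other groups are cells with 10 mM NH4Cl for 24 h and cells with the same NH4Cl and TGF-β for the last 1 h, each with 3 libraries. Doses and times are taken from the methods, and the labels give only the names of the treatments. All libraries come from the same line, and neither the labels nor the methods say whether the 3 replicates were separate cultures, so p-values measure the spread between these libraries, which may be technical.

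TGF-β binds the receptor TGFBR2, which recruits and phosphorylates TGFBR1, and the activated TGFBR1 phosphorylates SMAD2 and SMAD3, which enter the nucleus with SMAD4 and switch on early target genes such as SMAD7. In several epithelial cell types TGF-β can also reach SMAD1 and SMAD5, the SMAD proteins otherwise used by BMP receptors, whose best known targets are the ID genes. HCT116 belongs to the colon cancer lines with defective DNA mismatch repair and is known for inactivating mutations in an adenine run of the TGFBR2 coding sequence, and the comparison therefore gives the size of a response in a line with impaired receptor function. FPKM values carry no information on such mutations.

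That run is shown here because it is the reason for the interest in this line. In the GRCh38 reference, read from GENCODE release 29, the longest adenine run of the TGFBR2 coding sequence has 10 bases and covers coding bases 374 to 383 of transcript TGFBR2-201, within codons 125 to 128 in exon 3 of 7. The 30 bases around it lie at chr3:30650370-30650399 on the + strand, with the run in capitals. This is the reference, not a sequence read from these cells.
TGFBR2: attatgaaggAAAAAAAAAAgcctggtgag

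Reads on genes, recovered from the FPKM values, numbered 16647681, 16700597 and 15298508 in control replicates 1, 2 and 3. The TGF-β libraries held 18191998, 14830829 and 15073706 reads on genes. Replicate 3 stood apart in every group before any comparison: mitochondrial genes took 5.12% of its reads in control and 4.50% with TGF-β, against 2.87% to 3.04% in the other 4 libraries compared. The replicate number was a block in the test. Replicate 3 is what the data set apart: with it left aside, the difference between replicates 1 and 2 was hardly correlated between groups (0.000453 to 0.0829 over genes, 6 pairs of groups), so that pairing replicate 1 with 1 and 2 with 2 rests on the numbers alone.

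The libraries carried the expression of a colon epithelial line. All 8 epithelial markers had a mean of at least 1 FPKM, their summed level in the 6 libraries ran from 2416 to 3427 FPKM, and KRT18, a keratin of simple epithelia, was the most abundant at a mean of 876 FPKM. Of 8 fibroblast markers, 2 reached a mean of 1 FPKM, led by LUM at 7.79 FPKM, while COL1A2, DCN and PDGFRA had means of 0.00653, 0.0208 and 0.00279 FPKM. Of the immune markers measured, LYZ alone reached a mean of 1 FPKM, at 1.12 FPKM, and of 4 endothelial markers VWF alone did, at 3.01 FPKM. The summed fibroblast markers took 8.04 to 10.6 FPKM in the 6 libraries, the immune markers 0.830 to 2.89 FPKM and the endothelial markers 1.58 to 4.38 FPKM, and their part in the results was not tested.

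The response to TGF-β was small. With limma and Benjamini-Hochberg adjustment over 12341 genes, 1 gene changed, ID1, which rose, and this is 0.0081% of the genes tested. At an unadjusted p under 0.05 there were 227 genes with a higher level (1.84%) and 195 with a lower level (1.58%), 422 in all. That is fewer than this threshold would let through on average if no gene differed. Without the replicate block, limma called 0 genes after adjustment and 103 at an unadjusted p under 0.05. The median absolute log2 fold change was 0.04 over all genes, below the median SE of 0.06, and the median fold change itself was 0.00.

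The intervals of the fold changes show how large a response these libraries leave room for. On the log2(FPKM + 1) scale, the 95% interval lay within 1.5-fold in either direction for 11883 genes (96.3%) and within 1.2-fold for 9753 genes (79.0%). This scale understates the change of genes with low values. The share within 1.5-fold was 92.0% with a pseudocount of 0.1 and 89.5% without the replicate block. Among the 7278 genes with a mean of at least 5 FPKM, the share within 1.5-fold was 99.2%. The 24 h treatment with NH4Cl, tested in the same fit against the same control libraries, gives a yardstick: limma with Benjamini-Hochberg adjustment called 1674 genes (13.6%), 916 higher and 758 lower, with a median absolute log2 fold change of 0.09. Without the block that count was 47. NH4Cl and TGF-β differed in the time of exposure as well as in the agent.

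**Figure D1:**
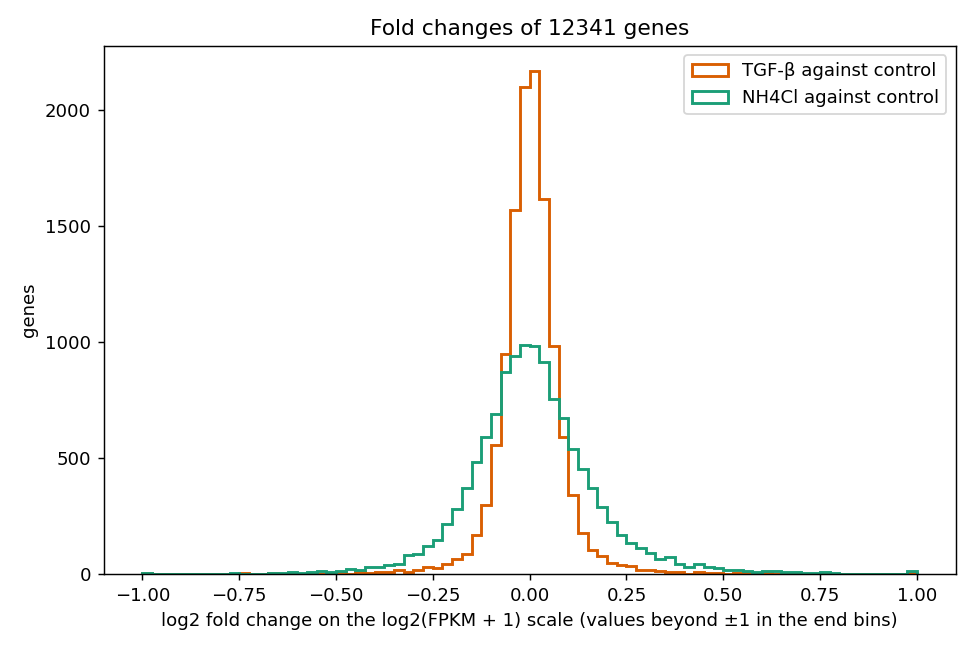
Number of genes at each log2 fold change on the log2(FPKM + 1) scale, for TGF-β against control and for NH4Cl against control, over the same 12341 genes, with values beyond 1 in either direction placed in the end bins. The TGF-β distribution is narrower, with a median absolute log2 fold change of 0.04 against 0.09, and 11 genes lay beyond 1 with TGF-β.

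ID1 was the gene that passed. It encodes a helix-loop-helix protein that binds and blocks basic helix-loop-helix transcription factors, and it is the best known target of the BMP-type SMAD proteins (ENSG00000125968, chr20:31605283-31606515 on the + strand of GRCh38, with no other annotated exon over it). Its level was 26.1, 22.9 and 46.6 FPKM in control replicates 1, 2 and 3 and 45.4, 37.1 and 66.2 FPKM in TGF-β replicates 1, 2 and 3. Each TGF-β library stood above the control library of its number, and replicate 3 was the highest in both groups, so that the groups overlapped: control replicate 3 lay above both TGF-β libraries 1 and 2. The group means were 31.9 ± 12.9 FPKM (SD, n = 3) in control and 49.5 ± 15.0 FPKM (SD, n = 3) with TGF-β.

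In reads, ID1 had 544, 486 and 852 in the control libraries and 1040, 694 and 1186 in the TGF-β libraries. The ratio of FPKM within a pair was 1.74 in pair 1, 1.62 in pair 2 and 1.42 in pair 3, and the lowest lower bound of the exact 95% binomial (Clopper-Pearson) intervals was 1.30. These intervals cover counting error only. The log2 fold change of ID1 was 0.65 with an SE of 0.07 and a 95% interval of 0.50 to 0.79, which corresponds to a 1.57-fold higher level on the log2(FPKM + 1) scale (adjusted p = 0.0248 with limma and Benjamini-Hochberg adjustment, higher in 3 of 3 pairs). In bulk RNA, a higher level in every cell and a higher level in a share of the cells cannot be told apart.

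Whether ID1 passed depended on the setting of the test more than its fold change did. Without the replicate block, limma with Benjamini-Hochberg adjustment gave an adjusted p of 1.00 for the same fold change. A block that sets only replicate 3 against the others, an alternative chosen after seeing the data, gave 0.231 (limma with Benjamini-Hochberg adjustment), with 0 genes called and 436 at an unadjusted p under 0.05. With only the 6 libraries compared, limma gave an adjusted p (Benjamini-Hochberg) of 0.430. Leaving out 1 library moved the log2 fold change to between 0.59 and 0.71, and limma's adjusted p (Benjamini-Hochberg) became 0.296 without control replicate 1, 0.138 without control replicate 2, 0.127 without control replicate 3, 0.150 without TGF-β replicate 1 and 0.195 without TGF-β replicate 2, but 0.0195 without TGF-β replicate 3.

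In the NH4Cl-treated cells the fold change with TGF-β comes from 6 other libraries, while the spread and the block of the test come from the same fit of all 12. ID1 stood at 21.9, 17.1 and 38.0 FPKM in NH4Cl replicates 1, 2 and 3 and at 32.2, 31.0 and 54.9 FPKM in those with NH4Cl and TGF-β. Again each library with TGF-β was above its partner and replicate 3 was the highest. The log2 fold change was 0.62 with a 95% interval of 0.48 to 0.77 (adjusted p = 0.0342, limma with Benjamini-Hochberg adjustment), and ID1 was again the only gene of 12341 called (0.0081%), with 879 genes at an unadjusted p under 0.05. Over both backgrounds together, 6 libraries against 6, the log2 fold change was 0.64 (adjusted p = 0.00119, limma with Benjamini-Hochberg adjustment, 0.0081% of genes called) and ID1 was higher in 6 of 6 pairs, which held for 2.24% of all genes. The call in NH4Cl-treated cells was lost without the block (adjusted p = 1.00), with the block of replicate 3 alone (0.431), with equal library sums (0.0568) and with only the groups compared (0.413), all with limma and Benjamini-Hochberg adjustment. It was also lost without NH4Cl replicate 1 (0.206), 2 (0.188) or 3 (0.0767) and without NH4Cl + TGF-β replicate 1 (0.125), 2 (0.217) or 3 (0.281) in limma with Benjamini-Hochberg adjustment. Over both backgrounds limma with Benjamini-Hochberg adjustment gave an adjusted p of 1.00 without the block and of 0.0214 with the block of replicate 3 alone. The difference between the backgrounds was -0.02 (adjusted p = 0.992 with limma and Benjamini-Hochberg adjustment).

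**Figure D2:**
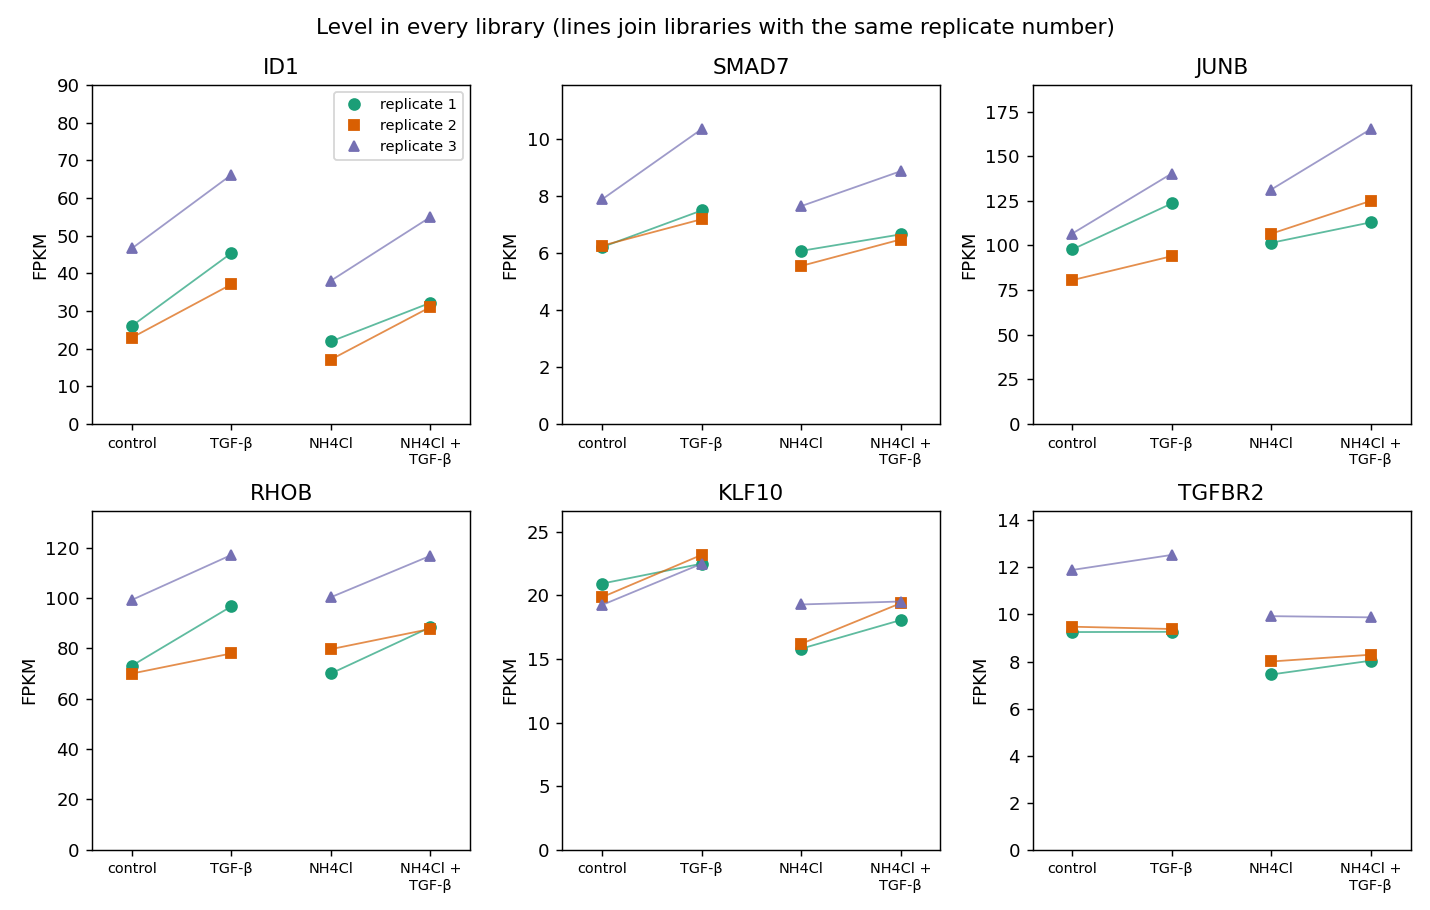
FPKM of ID1, SMAD7, JUNB, RHOB, KLF10 and TGFBR2 in each of the 12 libraries, on axes that start at 0. Points are libraries, their shape and colour give the replicate number, and lines join the libraries with and without TGF-β of the same number. For ID1 all 6 lines go up, while its replicate 3 lies highest in every group.

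The sequence before the ID1 start is shown with that of SMAD7, described further on, because these genes had the smallest and the third smallest p of all genes. It comes from RefSeq on GRCh38.p14 and holds the 250 bases before the start, at chr20:31605039-31605288 on the + strand for ID1 and at chr18:48950966-48951215 on the - strand for SMAD7, whose start furthest upstream of 3 was taken. Both strands were searched for CAGAC, the core that SMAD3 and SMAD4 are known to bind, for its palindrome GTCTAGAC, and for GGCGCC, a GC-rich element known from BMP targets, none of which contains another. CAGAC or its complement GTCTG occurred in 38.0% of the 35116 promoter windows of this length, GTCTAGAC in 0.182% and GGCGCC in 16.4%. CAGAC, in capitals, begins 217 and 128 bases before the SMAD7 start, and none of the 3 motifs is in the ID1 window, which says only that these letters are not in it.
ID1: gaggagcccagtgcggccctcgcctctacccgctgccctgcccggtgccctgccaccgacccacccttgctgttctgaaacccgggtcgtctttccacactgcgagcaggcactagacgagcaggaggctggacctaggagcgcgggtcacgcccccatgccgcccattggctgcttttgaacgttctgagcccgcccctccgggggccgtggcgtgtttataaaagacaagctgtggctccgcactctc
SMAD7: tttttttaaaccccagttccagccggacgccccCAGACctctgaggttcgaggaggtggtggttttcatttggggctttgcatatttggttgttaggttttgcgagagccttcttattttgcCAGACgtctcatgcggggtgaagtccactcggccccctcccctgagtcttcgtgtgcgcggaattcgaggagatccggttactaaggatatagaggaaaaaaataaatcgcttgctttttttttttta

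Of 24 ligands and genes of latency and activation, 16 passed the filter and 0 were called, where 0.0081% of all genes were, and their log2 fold changes ran from -0.17 to 0.08 with a median of 0.00. TGFB1, which encodes a TGF-β ligand, stood at 43.0, 39.3 and 69.7 FPKM in control replicates 1, 2 and 3 and at 41.8, 40 and 71.1 FPKM with TGF-β, a log2 fold change of 0.00 (95% interval -0.14 to 0.14). The groups overlapped, with replicate 3 the highest in each. An exon of HNRNPUL1 lies opposite that of TGFB1, and without strand in the counting their reads cannot be told apart. The most abundant ligand per length was BMP4, a BMP that signals through SMAD1 and SMAD5, at a control mean of 139 ± 13.3 FPKM (SD, n = 3) and a log2 fold change of -0.04.

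Both TGF-β receptors were expressed. TGFBR2, which binds the ligand, stood at 9.25, 9.48 and 11.9 FPKM in control replicates 1, 2 and 3 and at 9.26, 9.38 and 12.5 FPKM with TGF-β, and TGFBR1, which carries the signal to the SMAD proteins, had a mean of 12.2 ± 0.871 FPKM (SD, n = 3) in control against 12.3 ± 2.11 FPKM (SD, n = 3) with TGF-β. For TGFBR2 the 2 groups overlapped, and replicate 3 was the highest in each. The log2 fold change was 0.02 (95% interval -0.07 to 0.11) for TGFBR2 and 0.00 (95% interval -0.13 to 0.14) for TGFBR1. In all, 9 of 13 receptors of the family passed the filter and 0 were called, where 0.0081% of all genes were. The 95% intervals of all 9 lay within 1.5-fold, where those of 96.3% of all genes did.

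Among SMAD2, SMAD3, the other receptor SMADs and their adaptors, 6 of 8 passed the filter and 0 were called, against 0.0081% of all genes. Their log2 fold changes ran from 0.00 to 0.08. SMAD3 stood at 13.7, 14.3 and 18.0 FPKM in control replicates 1, 2 and 3 and at 14.2, 13.8 and 18.5 FPKM with TGF-β, and its log2 fold change was 0.01 (95% interval -0.08 to 0.10). SPTBN1, the spectrin that serves as a SMAD3 adaptor and that the study centres on, stood at 18.6, 19.9 and 19.7 FPKM in control and at 19.3, 19.1 and 21.1 FPKM with TGF-β, a log2 fold change of 0.03 (95% interval -0.10 to 0.16). For both genes the groups overlapped. SMAD4, the partner of the receptor SMADs, is listed at 0.142 to 0.221 FPKM in these 6 libraries and did not pass the filter, but another annotated gene shares exons with it on the same strand, so that its value is uncertain.

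The inhibitors of the pathway include SMAD7, which blocks the receptors and is itself induced by TGF-β as a feedback. SMAD7 stood at 6.21, 6.26 and 7.88 FPKM in control replicates 1, 2 and 3 and at 7.49, 7.19 and 10.3 FPKM with TGF-β. Each TGF-β library was above its partner, and control replicate 3 lay above TGF-β replicates 1 and 2, so that the groups overlapped through that library alone. For SMAD7 the log2 fold change was 0.25 with a 95% interval of 0.15 to 0.36, the third smallest p of all genes, and it did not pass (adjusted p = 0.948, limma with Benjamini-Hochberg adjustment). In the NH4Cl-treated cells its log2 fold change was 0.17 with a 95% interval of 0.06 to 0.27. In all, 12 of 14 inhibitors passed the filter and 0 were called, against 0.0081% of all genes. At an unadjusted p under 0.05 there were 2 with a higher level, SMAD7 and PMEPA1, against 1.84% of all genes. At that p 1 had a lower level, BAMBI, a decoy receptor, against 1.58% of all genes. SMAD7 and PMEPA1 are also counted among the early targets below.

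The early targets of SMAD2 and SMAD3 had small values that leaned to one side. Of 24 such genes 22 passed the filter and 0 were called, against 0.0081% of all genes. The list was chosen with earlier results of these data known, so the shares below are descriptions. Their median log2 fold change was 0.10, against 0.00 over all genes. A value above 0 was found in 20 of 22, against 51.2% of all genes, and in 18 of 22 with median centring. At an unadjusted p under 0.05, 9 of 22 (40.9%) had a higher level, against 1.84% of all genes. No member had a lower level at that p. Without the replicate block that count was 1 of 22, KLF10, against 0.389% of all genes, and with the block of replicate 3 alone, chosen after seeing the data, it was 10 of 22, against 1.94%. In 12 of 22 the level was higher in 3 of 3 pairs, which held for 12.7% of all genes. The 95% interval lay within 1.5-fold for 22 of 22, against 96.3% of all genes.

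The members with the largest values are transcription factors, signaling genes and a growth factor. JUNB, an AP-1 subunit with an exon of HOOK2 on the opposite strand, stood at 97.8, 80.6 and 107 FPKM in control replicates 1, 2 and 3 and at 124, 94.0 and 140 FPKM with TGF-β. RHOB, a small GTPase, stood at 73.1, 70.0 and 99.3 FPKM in control and at 96.7, 78 and 117 FPKM with TGF-β. PDGFB, a platelet-derived growth factor chain, stood at 6.47, 6.97 and 9.10 FPKM in control and at 7.64, 8.14 and 11.8 FPKM with TGF-β. In each of these 3 genes every TGF-β library was above its partner, and the groups overlapped because the replicates differed more from each other than the treatments did. Their log2 fold changes were 0.32 for JUNB (95% interval 0.11 to 0.52), 0.26 for RHOB (0.11 to 0.42) and 0.25 for PDGFB (0.11 to 0.39), with an adjusted p of 1.00 for each in limma with Benjamini-Hochberg adjustment.

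Others of the 9, beside SMAD7, were SNAI2 (log2 fold change 0.25), an epithelial-mesenchymal transcription factor, GADD45B (0.20), a stress response gene, KLF10 (0.18), a TGF-β-induced repressor, and PMEPA1 (0.13), a feedback inhibitor. KLF10 was the only one of the 9 whose groups did not overlap, at 20.9, 19.9 and 19.3 FPKM in control replicates 1, 2 and 3 and at 22.5, 23.2 and 22.5 FPKM with TGF-β. In 1.83% of all genes every TGF-β library was above every control library. SKIL, a SMAD corepressor, and BHLHE40, a helix-loop-helix repressor, had log2 fold changes of 0.10 and 0.12 with intervals that include 0. Single libraries moved the value of SKIL, to 0.03 without TGF-β replicate 1 and to 0.16 without TGF-β replicate 3. For PMEPA1 it was 0.08 without TGF-β replicate 3 and 0.16 without TGF-β replicate 2. CCN2, listed under its older name CTGF, had a control mean of 1.32 FPKM, the lowest of the 22 tested, and a log2 fold change of 0.09 (95% interval -0.20 to 0.39). The value of CCN2 was -0.05 without TGF-β replicate 1 and 0.25 without control replicate 3.

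**Figure D3:**
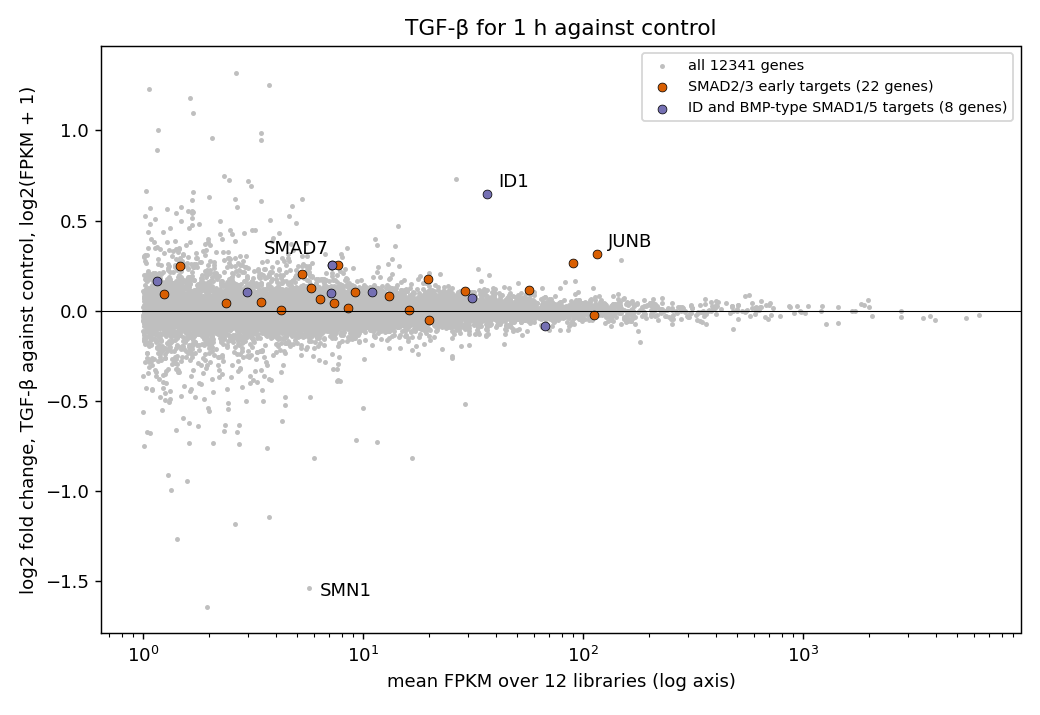
Log2 fold change with TGF-β against control on the log2(FPKM + 1) scale for 12341 genes, plotted against the mean FPKM over 12 libraries on a log axis, with the 22 early targets of SMAD2 and SMAD3 and the 8 ID and BMP-type targets in colour. ID1 lies at 0.65, above the genes of similar level, JUNB at 0.32 and SMAD7 at 0.25.

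The same 22 genes had a median log2 fold change of 0.10 in the NH4Cl-treated cells, in other libraries, against 0.00 over all genes. There, 8 of 22 had a higher level and 1 of 22, NEDD9, a lower level at an unadjusted p under 0.05, where 4.42% of all genes had a higher level and 2.71% a lower one, and without the replicate block 0 of 22 had a higher level in limma at that p, against 0.81% of all genes. The level was higher in 3 of 3 pairs for 11 of 22, against 14.3% of all genes, and in 6 of 6 pairs over both backgrounds for 8 of 22 (36.4%), against 2.24% of all genes. Over both backgrounds together 11 of 22 had a higher level at an unadjusted p under 0.05, against 3.79% of all genes. Of the 22, limma with Benjamini-Hochberg adjustment called 0, against 0.0081% of all genes. These shares are descriptions too, as the list was chosen with earlier results of these data known. In NH4Cl-treated cells the log2 fold change was 0.24 for JUNB, 0.23 for RHOB, 0.19 for PDGFB, 0.16 for GADD45B and 0.15 for KLF10. For SNAI2 it was 0.14 and for PMEPA1 0.05, with intervals that include 0.

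**Figure D4:**
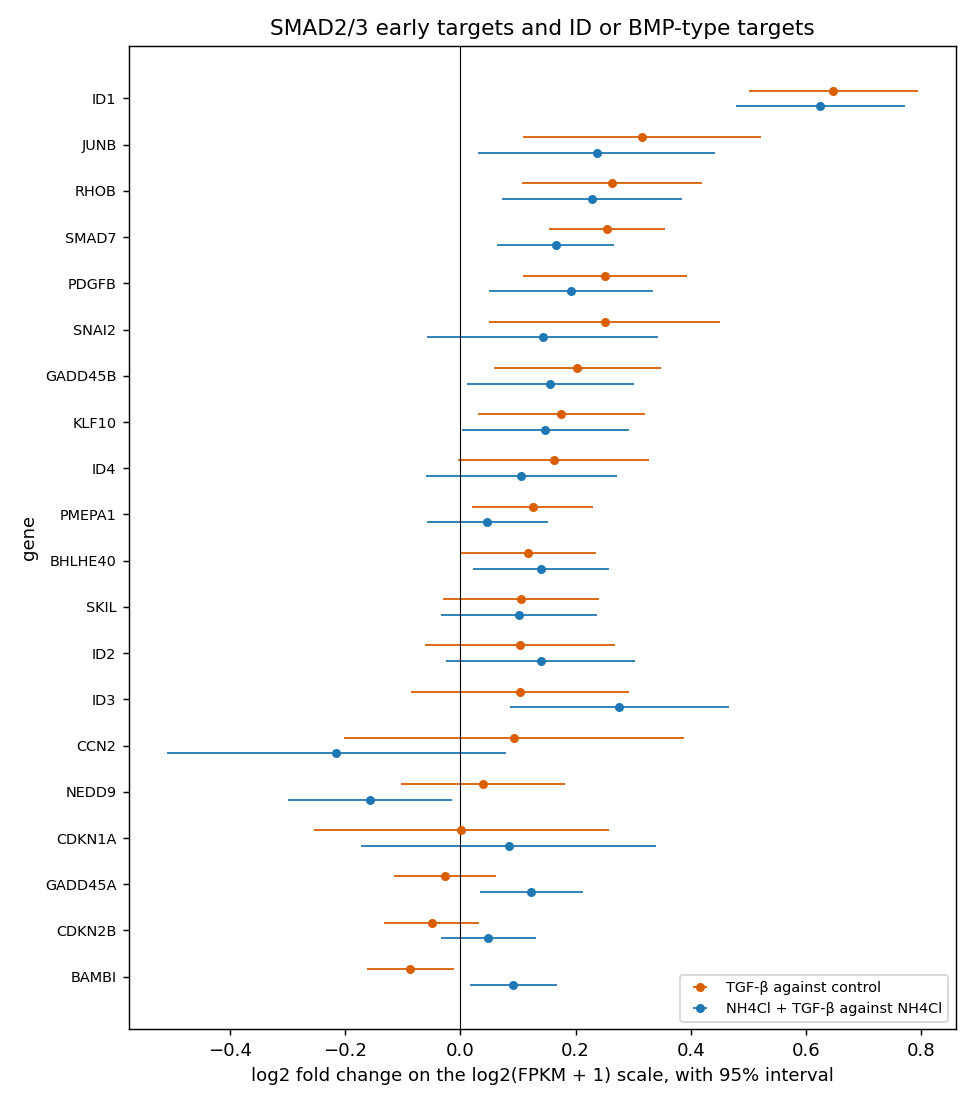
Log2 fold change with 95% interval on the log2(FPKM + 1) scale for the early targets of SMAD2 and SMAD3 and the ID and BMP-type targets named in the text, for TGF-β against control and for NH4Cl + TGF-β against NH4Cl. The fold changes share no library, and the intervals use the spread of all 12. ID1 lies apart at 0.65 and 0.62, and the value of BAMBI is below 0 in one comparison and above 0 in the other.

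Among the ID and BMP-type targets of SMAD1 and SMAD5, 8 of 15 passed the filter, and ID1 was the 1 called, against 0.0081% of all genes. The median log2 fold change was 0.10 and 7 of 8 had a value above 0, against 51.2% of all genes, with SMAD7, an early target too, among the 7. This list was also chosen with earlier results of these data known. ID3 stood at 2.30, 2.27 and 3.87 FPKM in control replicates 1, 2 and 3 and at 3.02, 2.20 and 4.06 FPKM with TGF-β, a log2 fold change of 0.10 (95% interval -0.09 to 0.29). ID2 stood at 12.1, 11 and 10.8 FPKM in control and at 12.6, 13.5 and 10.6 FPKM with TGF-β, a log2 fold change of 0.10 (95% interval -0.06 to 0.27). In each of these paralogs of ID1 a TGF-β library lay below its partner, replicate 2 for ID3 and replicate 3 for ID2. Single libraries moved these values: for ID3 it was 0.01 without TGF-β replicate 1, and for ID2 it was 0.02 without TGF-β replicate 2 and 0.19 without TGF-β replicate 3. ID4, with the lowest level of the 4 at a control mean of 1.25 FPKM, had a log2 fold change of 0.16 with a 95% interval that includes 0. In the NH4Cl-treated cells the values were 0.14 for ID2, 0.28 for ID3 and 0.11 for ID4. At an unadjusted p under 0.05 in limma, 4 of 8 members had a higher level there, against 4.42% of all genes. They were BAMBI, SMAD7, ID3 and ID1. Without the replicate block it was 0 of 8, against 0.81%. In untreated cells 2 of 8, SMAD7 and ID1, had a higher level at that p with the block, against 1.84% of all genes. BAMBI had a lower one, against 1.58%.

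BAMBI stood at 68.3, 64.4 and 83.0 FPKM in control replicates 1, 2 and 3 and at 63.7, 62.7 and 76.1 FPKM with TGF-β. Each TGF-β library lay below its partner, and the log2 fold change was -0.09 (95% interval -0.16 to -0.01). In the NH4Cl-treated cells the log2 fold change of BAMBI was 0.09 (95% interval 0.02 to 0.17), with each library with TGF-β above its partner.

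The genes of the TGF-β growth arrest programme gave no call, where 0.0081% of all genes were called. All 13 passed the filter, with a median log2 fold change of -0.01, and at an unadjusted p under 0.05 there was no member with a higher or a lower level, where 1.84% of all genes had a higher and 1.58% a lower level. MYC, which TGF-β lowers in responsive epithelial cells, stood at 214, 212 and 286 FPKM in control replicates 1, 2 and 3 and at 212, 192 and 289 FPKM with TGF-β, a log2 fold change of -0.05 (95% interval -0.14 to 0.04). The cell cycle inhibitors CDKN1A and CDKN2B, which TGF-β raises in such cells, had log2 fold changes of 0.00 (95% interval -0.25 to 0.26) and -0.05 (95% interval -0.13 to 0.03). Single libraries moved the value of CDKN1A, to 0.17 without TGF-β replicate 3 and to -0.09 without TGF-β replicate 1. CDKN1A stood at 12.8, 13.7 and 18.8 FPKM in control and at 14.2, 14.3 and 16.4 FPKM with TGF-β, and the groups overlapped.

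The immediate early genes respond within minutes to serum, stress or handling of the dish. Of 33 such genes 32 passed the filter, 0 were called, against 0.0081% of all genes, and the median log2 fold change was 0.02. FOS, an AP-1 subunit, stood at 38.6, 22.5 and 37.1 FPKM in control replicates 1, 2 and 3 and at 34.1, 21.6 and 35.5 FPKM with TGF-β, so that the replicates differed more than the treatments. Each TGF-β library lay below its partner, and the log2 fold change of FOS was -0.10. That value was -0.02 without control replicate 1 and -0.18 without control replicate 2. EGR1, a zinc finger factor of the same class, had a log2 fold change of -0.02 (95% interval -0.35 to 0.31). The value of EGR1 was -0.20 without TGF-β replicate 1 and 0.15 without TGF-β replicate 2. At an unadjusted p under 0.05 there were 2 members with a higher level, JUNB and KLF10, which are also on the SMAD2 and SMAD3 list, and 2 with a lower level, the pseudokinase gene TRIB1 at -0.12 and the nuclear receptor gene NR4A1 at -0.13, where 1.84% of all genes had a higher and 1.58% a lower level.

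Epithelial-mesenchymal and matrix genes gave no call among 14 of 22 that passed the filter, where 0.0081% of all genes were called. Their median log2 fold change was -0.01. CDH1, which encodes E-cadherin, had a log2 fold change of -0.01 (95% interval -0.12 to 0.10). At an unadjusted p under 0.05 SNAI2 had a higher level and ESRP1, an epithelial splicing regulator, a lower one at -0.09, which is 1 of 14 each way, where 1.84% of all genes had a higher and 1.58% a lower level. CEACAM1, the adhesion receptor that the study links to the pathway, stood at 2.57, 2.60 and 2.83 FPKM in control replicates 1, 2 and 3 and at 2.23, 2.59 and 2.70 FPKM with TGF-β, a log2 fold change of -0.07 (95% interval -0.20 to 0.06). Of 10 CEACAM genes 2 passed the filter and 0 were called, against 0.0081% of all genes.

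Chosen by p over all genes instead of by list, the 10 with a higher level and the same direction in 3 of 3 pairs included 3 members of the lists above, ID1, SMAD7 and PDGFB. The others were NPW, which encodes a neuropeptide, AL139099.3, CDK5R1, an activator of the kinase CDK5, ADPRM, FJX1, HMGN2P3 and KRT8P12. Of these 10 genes, 8 also had a value above 0 in the NH4Cl-treated cells, against 50.2% of all genes. At an unadjusted p under 0.05, 6 of 10 did so, against 4.42%. Both p-values of a gene use its spread over all 12 libraries, so a choice by small p also favours a small p there. No conclusion is drawn from that share. Beside ID1, SMAD7 and PDGFB, the 6 were NPW, FJX1 and the pseudogene KRT8P12. The log2 fold change in NH4Cl-treated cells was 0.20 for NPW (0.20 in untreated cells), 0.13 for FJX1 (0.14) and 0.27 for KRT8P12 (0.25). HMGN2P3 and AL139099.3 are pseudogenes of few reads with log2 fold changes of 1.25 and 1.18, and of -0.33 and 0.05 in the NH4Cl-treated cells. Except for ID1, the adjusted p was at least 0.948 for each (limma with Benjamini-Hochberg adjustment).

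The 10 with a lower level were SMN1, SAT2, AL355355.2, FAM27C, COA6, LHB, MIR4479, AC092868.1, RABIF and MT-TS1. Of these, 6 of 10 had a value below 0 in the NH4Cl-treated cells, against 49.8% of all genes. At an unadjusted p under 0.05, 2 of 10 did so, against 2.71%, again with p-values that share the spread of all 12 libraries. SMN1, which encodes a protein of spliceosomal RNP assembly, stood at 13.8, 6.77 and 17.3 FPKM in control replicates 1, 2 and 3 and at 3.73, 3.55 and 2.95 FPKM with TGF-β. The groups did not overlap, where 1.73% of all genes had every TGF-β library below every control library. The NH4Cl libraries, at 3.20, 3.34 and 4.02 FPKM, resembled the TGF-β libraries, so that the 3 control libraries were the ones apart. For SMN1 the log2 fold change was -1.54 (adjusted p = 0.171, limma with Benjamini-Hochberg adjustment), and -0.09 in the NH4Cl-treated cells. SMN1 has a near-identical copy, SMN2, and its value is uncertain. SMN2 stood at 2.94, 3.00 and 3.25 FPKM in control replicates 1, 2 and 3 and at 3.95, 3.19 and 2.35 FPKM with TGF-β.

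Across all genes the fold changes of the backgrounds had almost no correlation. Over 12341 genes, which are not independent replicates, the correlation of the log2 fold changes with TGF-β between untreated and NH4Cl-treated cells was 0.0179. Among genes with a mean of at least 5 FPKM it was 0.0355. Between the 3 pairs of untreated cells the correlation ran from -0.00130 to 0.0157. Between pairs of the same number in the 2 backgrounds it was -0.106 for replicate 1, 0.0277 for replicate 2 and 0.123 for replicate 3. Of the 227 genes with a higher level at an unadjusted p under 0.05, 144 (63.4%) had a value above 0 in the NH4Cl-treated cells, and of the 195 with a lower level 84 (43.1%) had a value below 0, where 51.8% of all genes had the same direction in both. For 65 genes p was under 0.05 in both backgrounds, of which 35 were higher in both, 14 lower in both and 16 opposite. Both p-values of a gene use the same spread, which favours a small p in both. limma with Benjamini-Hochberg adjustment called 0 genes (0%) for a difference between the backgrounds, with 537 at an unadjusted p under 0.05.

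**Figure D5:**
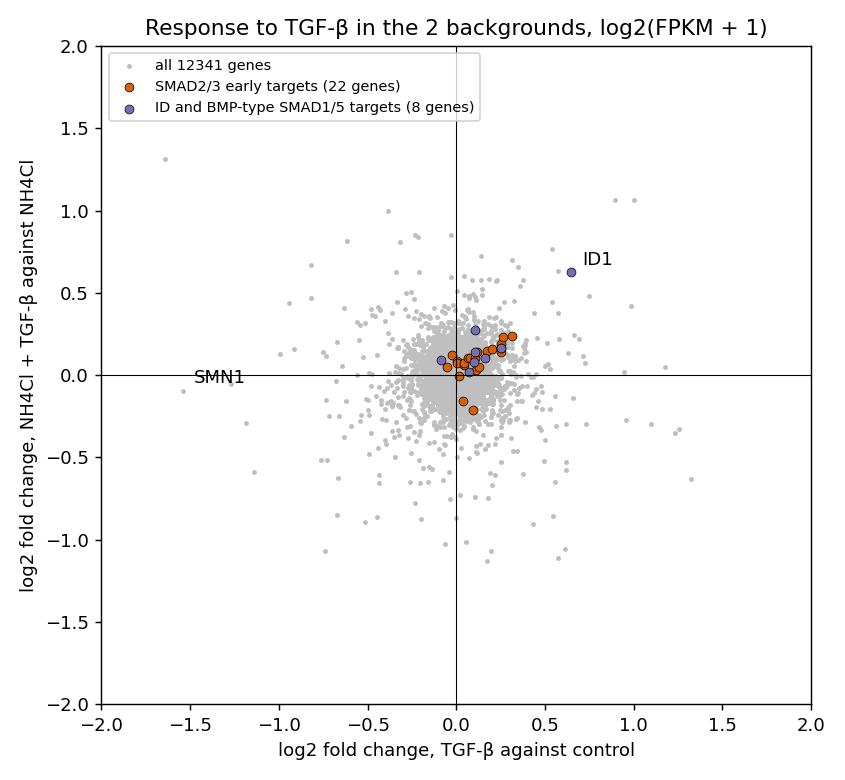
Log2 fold change with TGF-β in NH4Cl-treated cells against that in untreated cells on the log2(FPKM + 1) scale, for 12341 genes, from libraries that the comparisons do not share. The cloud has no slope (correlation 0.0179), ID1 lies at 0.65 and 0.62, and SMN1 at -1.54 and -0.09.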

How the data were processed

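Total RNA of HCT116 cells was sequenced in 12 libraries, 3 in each of 4 groups. The authors deposited FPKM for 25733 genes. The submitters' processing notes name Trimmomatic 0.36, STAR 2.5.2b, featureCounts of Subread 1.5.2, DESeq2 and GRCh38, while the study's methods name another counter and another RNA kit than the labels, so the steps behind the values are uncertain. No source used here states a stranded count. The groups come from the labels.

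All gene identifiers were found in GENCODE 29, which gave positions and exon lengths. FPKM times exon length was a whole number of reads, within 0.05 of a read, for 100% of values, and reads on genes ran from 14807630 to 18191998 per library. For each gene with a mean of at least 1 FPKM, log2(FPKM + 1) went into a linear model of limma (3.58.1, under R 4.3.3) with 4 group means over 12 libraries, the replicate number as a block and an intensity trend, in two-sided tests with Benjamini-Hochberg adjustment and a threshold of 0.05. A fold change on this scale understates the change of genes with low values. In the check of the pairing, the deviations of same-numbered libraries from their group means correlated at 0.349 to 0.774 over genes in 18 of 18 pairs, but those of replicates 1 and 2 also did so across numbers, at 0.341 to 0.486 in 12 of 12 pairs. Only replicate 3 is thus set apart by the data, and the labels do not say what a number stands for. The remaining scripts ran under Python 3.11.15, using numpy 2.4.6, pandas 2.3.3, scipy 1.17.1 and matplotlib 3.10.9.

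The members and the gene lists were chosen with earlier results of these data known. The genes named are the 10 with the smallest p among those higher and the 10 among those lower with the same direction in 3 of 3 pairs, any gene past the threshold, TGFB1, MYC, SMAD3, SPTBN1 and CEACAM1, and members of the lists. SMN2 was named after its values were seen. Of the early targets, 1 counted in the list totals is not reported here by itself. Alternatives were no replicate block, a pseudocount of 0.1, no filter, a mean of at least 5 FPKM, equal library sums, median centring, no intensity trend, only the groups compared, each library left out in turn, and replicates 1 and 2 only. A block of replicate 3 against the others was added after seeing the data. CDH2, TWIST1, CEACAM3, CEACAM7, CEACAM8, PTPRC, MS4A1 and CD68 were not analysed here.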

Additional observations from a re-analysis of the deposited data

Results flagged for a closer look

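Among 53 tested genes that the text takes from the lists and the naming rule, 37 had one direction with TGF-β in 3 of 3 untreated pairs, partly because they were chosen for it. Of these, 4 (10.8%) had the other direction in 3 of 3 pairs of NH4Cl-treated cells, against 350 (11.7%) of all 2988 genes with one direction in 3 of 3 untreated pairs. The log2 fold change with TGF-β in NH4Cl-treated cells minus that in untreated cells was 0.42 for SAT2, which encodes an acetyltransferase, 0.18 for BAMBI, 0.15 for GADD45A, a stress response gene, and -0.20 for NEDD9, a scaffold protein of cell adhesion. limma with Benjamini-Hochberg adjustment did not call any of these differences, with an adjusted p of 0.459 for SAT2 and 0.992 for the other 3. SAT2 stood at 13.5, 12.8 and 16.7 FPKM in control replicates 1, 2 and 3 and at 11.7, 11.4 and 13.4 FPKM with TGF-β, and at 14.0, 12.8 and 17.6 FPKM with NH4Cl and 16.6, 15.5 and 19.7 FPKM with both.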

How the results depend on the processing

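The main count of genes changed with TGF-β was 1, ID1. It was 0 with no replicate block, with no filter, with no intensity trend and with only the groups compared. With a mean of at least 5 FPKM it was 2, where SMN1 also passed (adjusted p = 0.0201, limma with Benjamini-Hochberg adjustment). SMN1 reached a mean of 5 FPKM only through its control libraries. That filter thus depends on the difference tested, and no conclusion is drawn from this call. Leaving out 1 library gave 0 to 2 genes: 0 without control replicate 1 or 3 or TGF-β replicate 1 or 2, SMN1 alone without control replicate 2 (adjusted p = 0.00153, limma with Benjamini-Hochberg adjustment), and ID1 with the pseudogene RPS23P8 without TGF-β replicate 3. With replicates 1 and 2 only the 1 gene called was MIR4740, not ID1. With a replicate block of replicate 3 against the others, chosen after seeing the data, the count was 0, in NH4Cl-treated cells 0 and over both backgrounds 1, and ID1 had an adjusted p of 0.231 in untreated cells (limma with Benjamini-Hochberg adjustment).

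In NH4Cl-treated cells the count was 1, and 0 with no replicate block, no filter, equal library sums, no intensity trend, only the groups compared, replicates 1 and 2 only, and without any 1 library, where the adjusted p of ID1 was 0.0767 to 0.281 (limma with Benjamini-Hochberg adjustment). Over both backgrounds the count was 1, and 0 with no replicate block. Leaving out 1 library gave 1 to 2, and ID1 was called in each. For the difference between backgrounds the count was 0, 1 with replicates 1 and 2 only, and 0 to 1 without 1 library. For NH4Cl against control 1674 genes became 47 with no replicate block and 705 to 1398 without 1 library.

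The log2 fold change of ID1 was 0.59 to 0.72 over 16 alternatives, with an adjusted p of 0.00263 to 1.00 (limma with Benjamini-Hochberg adjustment) and a call in 5. The median absolute log2 fold change with TGF-β was 0.03 to 0.05, and the share of genes with an interval within 1.5-fold 89.5% to 99.3%. No named gene with an unadjusted p under 0.05 changed sign. The median log2 fold change of all genes was 0.00383 with equal library sums and -0.00354 with median centring. With 3 libraries a group, the intervals of genes with few reads were wide.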

Other observations

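The deposited table holds more genes for the control libraries than for the others. Reads on genes were found in controls alone for 386 of 25733 genes, and in the TGF-β, the NH4Cl or the combined libraries alone for 0 genes. The control libraries list 23050, 23174 and 23104 genes above 0 and the TGF-β libraries 22677, 22197 and 22466, although TGF-β replicate 1 has the most reads. Whether this bears on genes below the filter that have reads in every group was not tested. SMAD9, a BMP-type SMAD below the filter, had reads in every library. It is listed at 0.351, 0.326 and 0.342 FPKM in control replicates 1, 2 and 3 and at 0.179, 0.207 and 0.204 FPKM with TGF-β. These values come from 17 to 34 reads a library. SMAD9 had 25, 21 and 21 reads with NH4Cl and 28, 32 and 22 with NH4Cl and TGF-β, and was not tested.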
